A study of Arabidopsis thaliana with 9 samples.

Results

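The genes described here differed from wild type in opposite directions in plants mutant for the receptor ERECTA and in plants mutant for 2 of its ligands: they were higher than wild type in one mutant and lower than wild type in the other. They were selected on the measured values themselves. For each probe set the mean log2 value of er-2 minus WT and that of epfl4 epfl6 minus WT had to be of opposite sign, each at least 0.25 in size, and in both comparisons the 3 mutant arrays had to lie all above or all below the 3 WT arrays. Probe sets of loci from AT1G01010 to AT1G33700, of chloroplast genes and of TBL26, CP1, SCPL43 and AUR2 were left out. This gave 83 of 22746 probe sets, of which 27 were assigned to 1 gene and 56 had no gene in the annotation used. Since both comparisons chose these genes, their values are given as a description, with no test, and nothing is read from their direction.

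Inflorescence tips of Arabidopsis thaliana were profiled with 3 arrays each of the receptor mutant er-2, of the ligand double mutant epfl4 epfl6 and of the wild type (WT, Col-0). Per the labels, er-2 is allelic to er-106, all 3 genotypes have the genetic background Col-0, and the plants were 33 days past germination, grown on soil in continuous light without any treatment. Each array is labelled as a biological replicate, and the number of plants behind a sample is not given in the labels. The same 3 WT arrays served for both mutants, so the 2 changes of a gene are not independent of each other.

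ERECTA is a leucine-rich repeat receptor-like kinase at the plasma membrane that promotes the elongation of stems and flower stalks. EPFL4 and EPFL6 are small secreted cysteine-rich peptides, and ERECTA perceives them in the phloem after they are released from the endodermis. ERECTA has 2 close relatives, ERL1 and ERL2, and the EPF/EPFL family has further ligands, so a receptor mutant and a ligand mutant do not remove the same set of signals.

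The values are RMA log2 signals, and a difference of 1 is a doubling. Array medians lay between 5.81 and 5.91, arrays of the same genotype correlated across probe sets at 0.9945 to 0.9973, and arrays of different genotypes at 0.9816 to 0.9907. In bulk tissue, fewer cells of a type and less RNA per cell cannot be told apart. Of the 27 genes, 8 were higher in er-2 and lower in epfl4 epfl6, and 19 were lower in er-2 and higher in epfl4 epfl6. As background, 11.3% of all 22746 probe sets were higher and 9.07% lower in er-2 by the same size and array criteria, and 16.0% were higher and 14.6% lower in epfl4 epfl6. All differences of the 27 genes were under 2-fold in both mutants except that of JAL23 in epfl4 epfl6, at 3.36-fold.

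**Figure D1:**
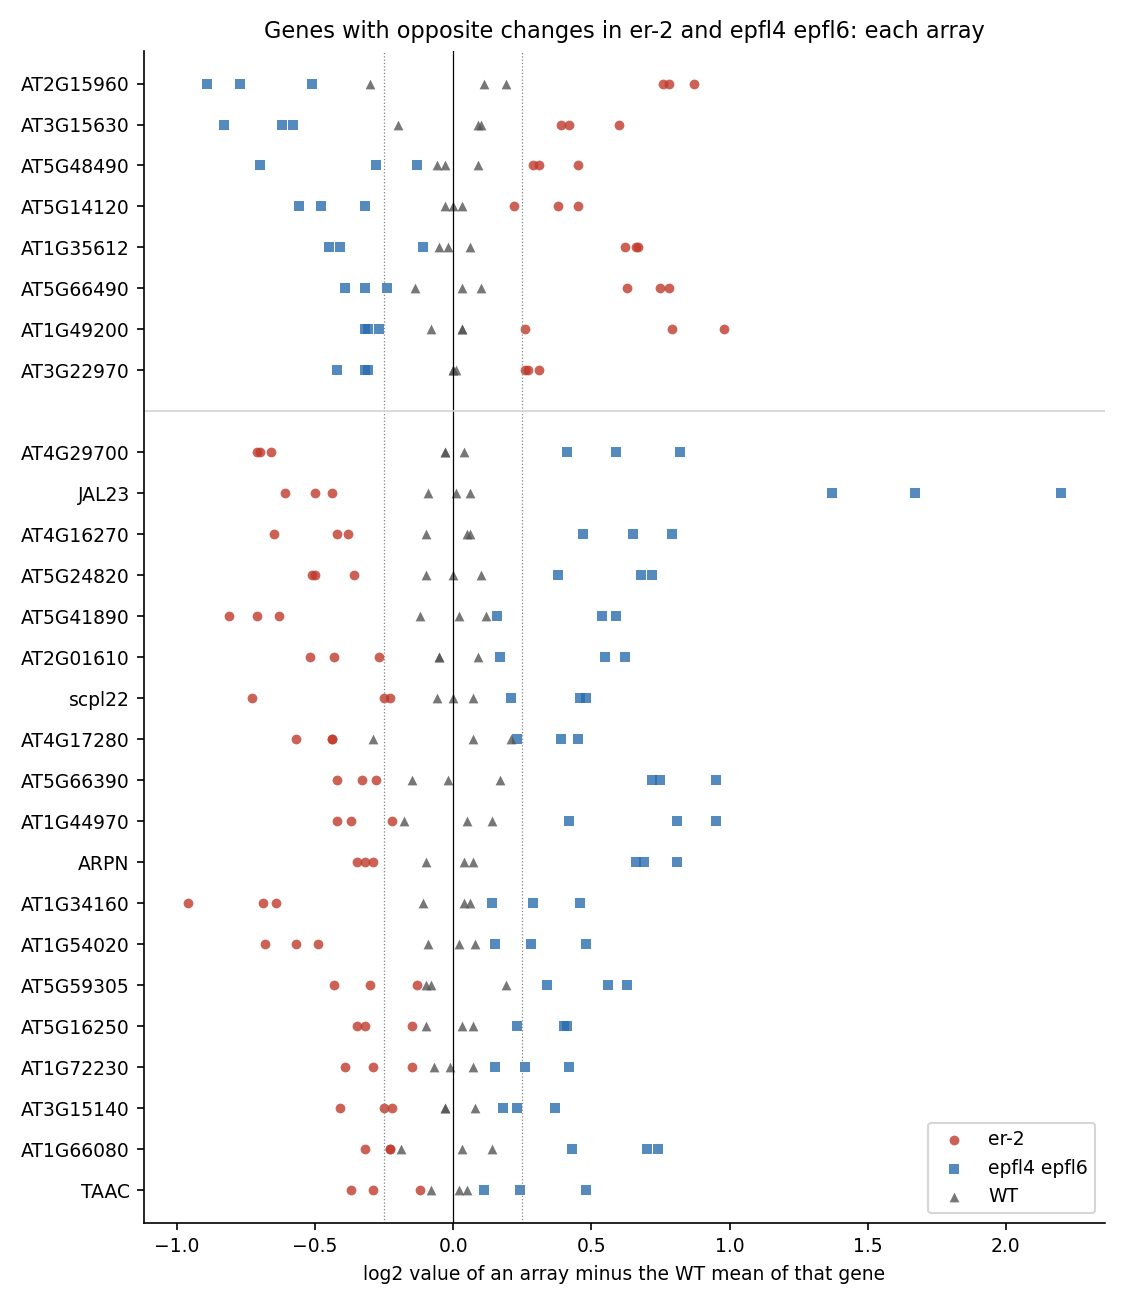
Log2 value of each array minus the WT mean of the gene, for the 27 genes with opposite changes; red circles are er-2, blue squares epfl4 epfl6 and grey triangles WT, with 3 arrays each. Dotted lines mark 0.25 on either side of the WT mean; the upper 8 genes are higher in er-2, the lower 19 are higher in epfl4 epfl6, and JAL23 reaches furthest to the right.

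Among the genes higher in er-2 and lower in epfl4 epfl6, AT2G15960 had the largest pair of differences, ranked by the smaller of both. Its log2 signal was 8.29, 8.40 and 8.31 in er-2 and 6.64, 6.76 and 7.02 in epfl4 epfl6, against 7.23, 7.72 and 7.64 in WT. The er-2 arrays were the highest and the epfl4 epfl6 arrays the lowest, and WT replicate 1 lay nearest to epfl4 epfl6. This is a log2 difference of 0.80 for er-2 and of -0.73 for epfl4 epfl6, or 1.75-fold and 1.65-fold.

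AT3G15630 read 9.51, 9.54 and 9.72 in er-2 and 8.29, 8.50 and 8.54 in epfl4 epfl6, against 8.92, 9.22 and 9.21 in WT. The 3 genotypes were clear of each other, with gaps of 0.29 between the nearest er-2 and WT arrays and of 0.38 between the nearest epfl4 epfl6 and WT arrays. The differences were 0.47 in er-2 and -0.68 in epfl4 epfl6.

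AT5G48490 read 8.34, 8.48 and 8.32 in er-2 and 7.90, 7.33 and 7.75 in epfl4 epfl6, against 8.0, 7.97 and 8.12 in WT. Here epfl4 epfl6 replicate 2 was the low array, and replicate 1 was 0.07 below the lowest WT array. The difference of -0.37 in epfl4 epfl6 was -0.20 without replicate 2.

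AT5G14120 read 8.68, 8.61 and 8.45 in er-2 and 7.67, 7.75 and 7.91 in epfl4 epfl6, against 8.26, 8.20 and 8.23 in WT. The WT arrays were close together, and the er-2 and epfl4 epfl6 arrays lay on either side of them. The differences were 0.35 and -0.45.

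In the remaining 4 of these 8 genes the smaller difference was between 0.28 and 0.32. AT1G35612, annotated as a pseudogene, averaged 7.94 ± 0.0292 in er-2 and 6.97 ± 0.185 in epfl4 epfl6, against 7.29 ± 0.0572 in WT (here and below, ± is the SD over 3 arrays). AT5G66490 averaged 5.51 ± 0.0798 in er-2 and 4.47 ± 0.0771 in epfl4 epfl6, against 4.79 ± 0.122 in WT. In both, the er-2 difference (0.65 and 0.72) was the larger, and epfl4 epfl6 lay 0.06 and 0.10 below the lowest WT array. AT1G49200 had the widest spread in er-2, at 5.75, 5.56 and 5.03, against 4.50, 4.46 and 4.45 in epfl4 epfl6 and 4.80, 4.80 and 4.69 in WT. Its er-2 replicate 3 lay nearest to WT. AT3G22970 had small differences with tight arrays, at 8.18 ± 0.0251 in er-2 and 7.55 ± 0.0615 in epfl4 epfl6, against 7.90 ± 0.00908 in WT. Over the 8 genes, the er-2 difference ran from 0.28 to 0.80 with a median of 0.56, and the epfl4 epfl6 difference from -0.73 to -0.29 with a median of -0.36.

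**Figure D2:**
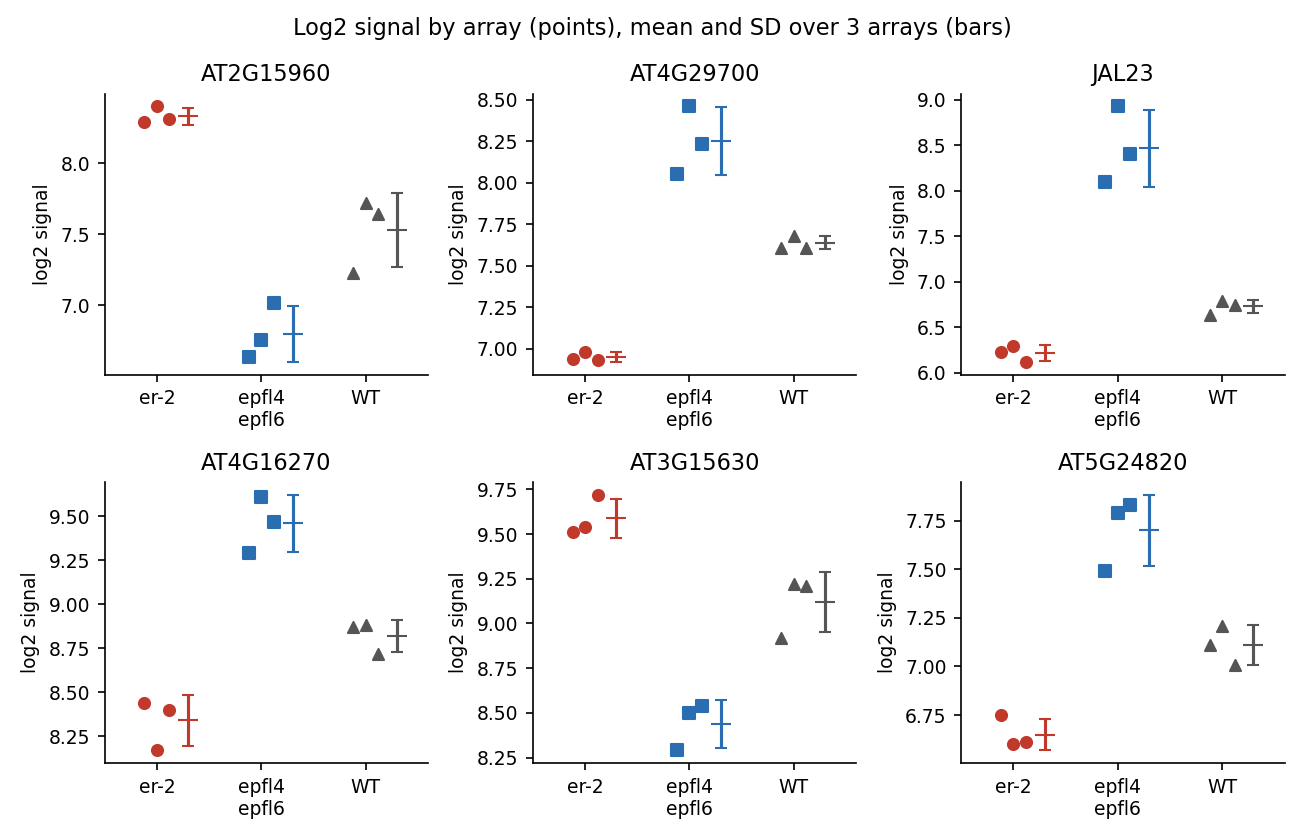
Log2 signal on each of 9 arrays (points) with the mean and SD over 3 arrays (bars) for the 6 genes whose smaller change was largest; genotypes run from er-2 through epfl4 epfl6 to WT. AT2G15960 and AT3G15630 are highest in er-2, and AT4G29700, JAL23, AT4G16270 and AT5G24820 are highest in epfl4 epfl6, with WT between the mutants.

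JAL23 (AT2G39330) had the largest difference of the 27 genes. It encodes a jacalin-related lectin, a family of carbohydrate-binding proteins, some of which gather in a complex with the β-glucosidase PYK10 when root cells are damaged. Its log2 signal was 6.23, 6.29 and 6.12 in er-2 and 8.10, 8.93 and 8.40 in epfl4 epfl6, against 6.64, 6.79 and 6.74 in WT. All epfl4 epfl6 arrays were at least 1.30 above the highest WT array, and all er-2 arrays at least 0.35 below the lowest. The differences were -0.51 in er-2 and 1.75 in epfl4 epfl6, so the size in epfl4 epfl6 was 3.43 times that in er-2, on the log2 scale. PYK10 itself was below the lower quartile on all 9 arrays.

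AT4G29700 had the largest pair of differences in this direction, ranked in the same way. It read 6.94, 6.98 and 6.93 in er-2 and 8.05, 8.46 and 8.23 in epfl4 epfl6, against 7.61, 7.68 and 7.61 in WT. The er-2 arrays were 0.63 or more below WT and the epfl4 epfl6 arrays 0.37 or more above it. The differences were -0.68 and 0.61.

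AT4G16270 read 8.44, 8.17 and 8.40 in er-2 and 9.29, 9.61 and 9.47 in epfl4 epfl6, against 8.87, 8.88 and 8.72 in WT. Its differences of -0.49 and 0.64 left gaps of 0.28 and 0.41 between the nearest arrays. AT5G24820 read 6.75, 6.60 and 6.61 in er-2 and 7.49, 7.79 and 7.83 in epfl4 epfl6, against 7.11, 7.21 and 7.01 in WT. In both genes the mutants stood clear of WT on either side.

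AT5G41890 read 5.88, 5.78 and 5.96 in er-2 and 6.75, 7.18 and 7.13 in epfl4 epfl6, against 6.71, 6.61 and 6.47 in WT. The er-2 arrays were well below WT, whereas epfl4 epfl6 replicate 1 lay 0.05 above the highest WT array. AT2G01610 read 6.65, 6.49 and 6.40 in er-2 and 7.47, 7.09 and 7.54 in epfl4 epfl6, against 6.87, 7.01 and 6.87 in WT. AT4G17280 read 4.78, 4.78 and 4.65 in er-2 and 5.67, 5.61 and 5.45 in epfl4 epfl6, against 4.93, 5.43 and 5.29 in WT. Its epfl4 epfl6 arrays began only 0.02 above the highest WT array, and without WT replicate 1 the epfl4 epfl6 difference of 0.36 was 0.22.

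Of the other genes in this direction, 4 carry an annotated product. The gene scpl22 (AT2G24000) belongs to the serine carboxypeptidase-like family, whose members resemble peptidases and in part work as acyltransferases. It was faint, at 3.47, 3.45 and 2.97 in er-2 and 3.91, 4.18 and 4.16 in epfl4 epfl6, against 3.70, 3.64 and 3.77 in WT. Its er-2 replicate 3, the low array, was below the lower quartile of that array, the only such value among the 27 genes. The er-2 difference of -0.41 was -0.24 without that array, and the epfl4 epfl6 difference was 0.38.

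AT5G66390, annotated as PEROXIDASE 72, is a secreted class III peroxidase, an enzyme type that cross-links lignin and wall proteins. It read 3.87, 4.01 and 3.96 in er-2 and 5.24, 5.01 and 5.04 in epfl4 epfl6, against 4.27, 4.14 and 4.46 in WT. The epfl4 epfl6 arrays stood well above the rest, while er-2 replicate 2 lay 0.13 below the lowest WT array. The differences were -0.35 and 0.80.

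ARPN (AT2G02850) encodes plantacyanin, a small secreted blue copper protein known from the pistil. It read 8.85, 8.88 and 8.82 in er-2 and 9.98, 9.86 and 9.83 in epfl4 epfl6, against 9.24, 9.07 and 9.21 in WT. The groups were tight and apart, with differences of -0.32 and 0.72. TAAC (AT5G01500), a thylakoid ATP/ADP carrier, was the gene nearest to the size limit. It read 6.30, 6.47 and 6.22 in er-2 and 6.83, 7.07 and 6.70 in epfl4 epfl6, against 6.61, 6.64 and 6.51 in WT, with gaps of 0.03 and 0.06 between the nearest arrays. Its epfl4 epfl6 difference of 0.28 was 0.18 without epfl4 epfl6 replicate 2.

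The remaining 8 genes lower in er-2 are known here only by locus tag. AT1G44970 averaged 9.54 ± 0.105 in er-2 and 10.61 ± 0.276 in epfl4 epfl6, against 9.88 ± 0.167 in WT. AT1G66080 averaged 5.0 ± 0.0512 in er-2 and 5.88 ± 0.166 in epfl4 epfl6, against 5.26 ± 0.167 in WT. In both, epfl4 epfl6 was clearly above WT (0.72 and 0.63), while er-2 was 0.03 and 0.04 below the lowest WT array. AT1G34160 and AT1G54020 showed the reverse. AT1G34160 averaged 4.12 ± 0.173 in er-2 and 5.18 ± 0.158 in epfl4 epfl6, against 4.88 ± 0.0906 in WT. AT1G54020 averaged 7.36 ± 0.0953 in er-2 and 8.24 ± 0.166 in epfl4 epfl6, against 7.94 ± 0.0901 in WT. Their er-2 differences of -0.76 and -0.59 were larger than the epfl4 epfl6 differences, 0.30 in each gene. AT5G59305 differed by -0.29 in er-2 (-0.19 without WT replicate 3) and 0.51 in epfl4 epfl6, AT5G16250 by -0.27 and 0.34, AT1G72230 by -0.27 and 0.28 and AT3G15140 by -0.30 and 0.26.

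Over the 19 genes, the er-2 difference ran from -0.76 to -0.25 with a median of -0.40, and the epfl4 epfl6 difference from 0.26 to 1.75 with a median of 0.45. The epfl4 epfl6 difference was the larger in 12 of these 19 genes and in 4 of the 8 genes of the other direction. All 3 arrays of each mutant took turns in lying nearest to WT. The er-2 array nearest to the WT mean was replicate 1 in 13 genes, replicate 2 in 8 and replicate 3 in 6, and the nearest epfl4 epfl6 array was replicate 1 in 10, replicate 2 in 7 and replicate 3 in 10.

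Scaling the arrays again, or leaving out an array, changed which genes met the criteria. Quantile normalization, median centring and the loss of each of the 9 arrays made 11 settings. The log2 differences of the 27 genes kept their direction under these, which the choice of non-overlapping groups largely fixes and which is no sign of stability. In all 11 settings 13 genes still met the criteria, JAL23, AT2G15960, AT4G29700, AT4G16270, AT3G15630, AT5G24820, AT5G41890, AT2G01610, AT5G14120, AT5G66390, ARPN, AT1G35612 and AT3G22970. The other 14 dropped out under at least 1 setting, TAAC and AT1G66080 among them. Groups that do not overlap cannot come to overlap when an array is left out. In those 9 settings only the size limit could drop a gene, so the list of 13 is no separate sign of stability. Leaving out an array also lets further probe sets in, since fewer arrays overlap less often. Without er-2 replicate 3, 44 probe sets with 1 gene met the criteria, against 27 with all arrays.

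The limit of 0.25 lies in a dense part of the distribution. Of 152 probe sets with 1 gene and opposite, non-overlapping changes of any size, 125 were under the limit. Just inside it were TAAC (-0.25 and 0.28), AT1G66080 (-0.25 and 0.63) and AT3G15140 (-0.30 and 0.26), each pair giving the er-2 difference first. Just outside were AT1G54050 (-0.25 and 0.25), AT3G14595 (0.28 and -0.25) and AT3G52070 (0.25 and -0.38). AT1G54050 lies 3 coding genes from AT1G54020 in the annotation and is the next measured gene after it.

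**Figure D3:**
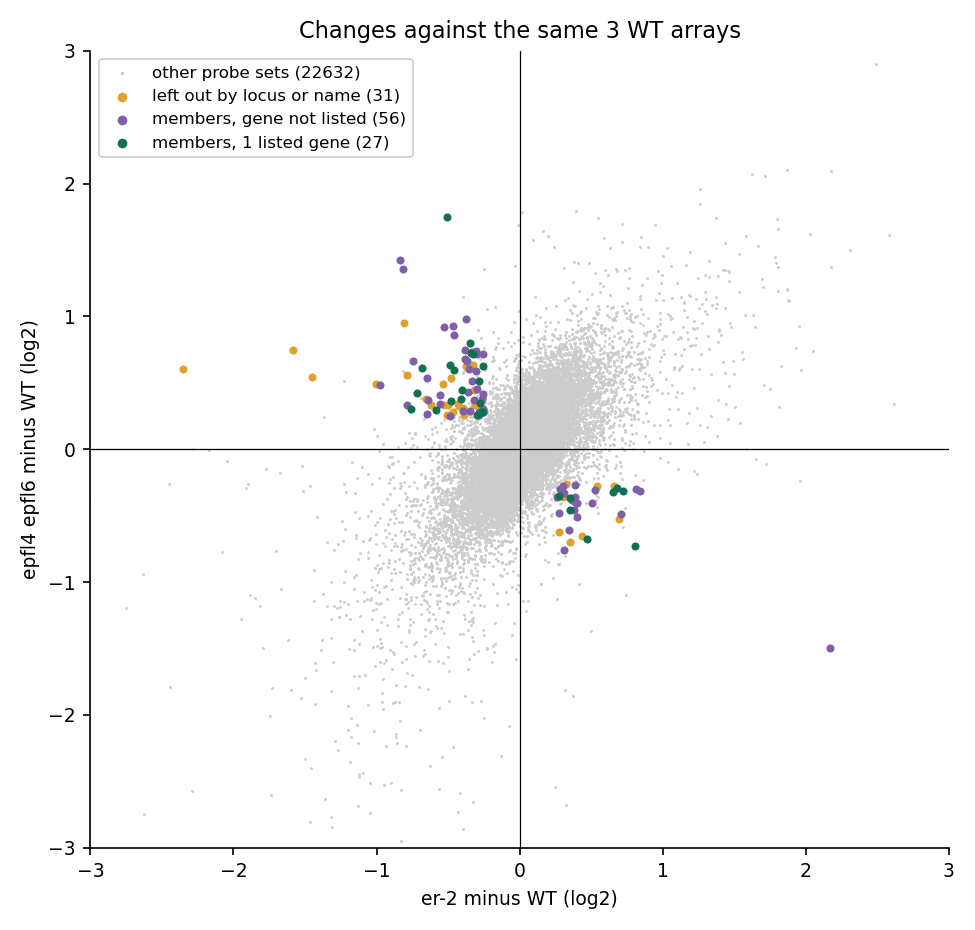
Log2 change in er-2 (x axis) against that in epfl4 epfl6 (y axis) for all probe sets, both relative to the same 3 WT arrays; green points are the 27 genes with opposite changes, purple the 56 probe sets without a listed gene, and orange the 31 left out by locus or name. The axes end at 3 on either side, which hides 47 other probe sets; the coloured points sit at the edge of the cloud except for a few such as JAL23 and the purple point at 2.17 and -1.50.

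The 56 probe sets without a listed gene divided similarly, with 20 higher and 36 lower in er-2. Among them was the largest pair of all 83, probe set 260621_at, singled out after its values were seen. It read 7.95, 8.35 and 7.77 in er-2 and 4.88, 4.88 and 3.29 in epfl4 epfl6, against 5.24, 6.67 and 5.65 in WT. The er-2 arrays were at least 1.10 above every WT array, and the low epfl4 epfl6 array was replicate 3. Its differences were 2.17 and -1.50. In the opposite direction, 257641_s_at differed by -0.84 in er-2 and 1.43 in epfl4 epfl6, and 256017_at by -0.81 and 1.36. Their loci are not known here, so these 56 may include loci the criteria leave out. They were 0.641% of the 8730 probe sets without a listed gene, and the 27 were 0.229% of the 11789 eligible probe sets with 1 gene.

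The criteria left out 31 further probe sets that met the size and array conditions. Of these, 27 belonged to the upper part of chromosome 1, 1 to a chloroplast gene, and 3 to TBL26, CP1 and SCPL43. The upper part of chromosome 1 held 26 such probe sets with 1 gene among 1574 measured, or 1.65%. Of these 26, 6 were higher and 20 lower in er-2. The 7 members on chromosome 1 all lie below that part. AT1G34160 is the nearest, 51 coding genes past AT1G33700, followed by AT1G35612 at 172 and AT1G44970 at 381.

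The 27 genes were spread over the 5 nuclear chromosomes. Chromosome 1 beyond the part left out held 7 of them (25.9%, against 15.9% of eligible probe sets) and chromosome 5 held 9 (33.3%, against 25.5%). Chromosome 2 held 5, and chromosomes 3 and 4 held 3 each. No measured neighbour of a member in gene order was itself a member. With members at 0.229% of eligible probe sets with 1 gene, so few neighbours cannot show whether members cluster. The gene after scpl22 is its relative scpl23 (AT2G24010), which differed by -0.03 in er-2 and 0.06 in epfl4 epfl6. Each of the 27 genes had 1 probe set with that gene alone, so no second probe set of the same gene was at hand.

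Relatives of JAL23, scpl22 and AT5G66390 were looked up by annotated name, which misses any relative known here only by its locus tag, also among the 27 genes. These families were picked after the members were known and carry no test. Of 4 measured JAL genes, JAL23 alone met the criteria. JAL34 (AT3G16460) was lower in both mutants, at 3.51 ± 0.241 in er-2 and 3.16 ± 0.0742 in epfl4 epfl6, against 3.98 ± 0.374 in WT, and its er-2 arrays overlapped those of WT. It was faint, with all 3 epfl4 epfl6 arrays and 1 er-2 array below the lower quartile. JAL22 (AT2G39310), which lies close to JAL23 on chromosome 2, was below the lower quartile on all 9 arrays, at 2.66 ± 0.128, 2.84 ± 0.0234 and 2.52 ± 0.256 in er-2, epfl4 epfl6 and WT. Within this faint range its epfl4 epfl6 arrays lay above those of WT, by 0.32 in the mean, and its er-2 arrays overlapped those of WT. JAL33 differed by 0.24 in er-2 and -0.09 in epfl4 epfl6, with overlapping arrays in both comparisons.

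Of 29 measured SCPL genes, scpl22 and SCPL43, left out by name, met the size and array criteria in opposite directions. Of all 22746 probe sets, 114 did so before any were left out. SCPL43 had the reverse signs of scpl22 but other sizes, with 0.27 in er-2 and -0.62 in epfl4 epfl6, against -0.41 and 0.38 for scpl22. By those criteria 5 of the 29 SCPL genes were higher and 2 lower in er-2, and 5 were higher and 4 lower in epfl4 epfl6. Over all probe sets 11.3% were higher and 9.07% lower in er-2, and 16.0% higher and 14.6% lower in epfl4 epfl6. The family medians were 0.00 in er-2 and -0.02 in epfl4 epfl6, beside 0.01 and -0.00 over all probe sets. The largest differences in the family, those of scpl31 (1.38 and 1.30) and scpl35 (0.68 and 1.04), went the same way in both mutants. For peroxidases, the lookup used only a peroxidase number in the annotation. Members known here only by locus tag, AT4G16270 and AT1G44970 among them, could not be assigned by it. The lookup thus cannot tell whether AT5G66390 is the only peroxidase among the members. Besides AT5G66390, 5 measured genes carry a peroxidase number in the annotation, and none of these 5 was a member. AT5G64120 differed by -0.22 and -0.36, AT2G41480 by 0.16 and 0.32, PRX52 by -0.08 and 0.02, Prx37 by 0.04 and -0.02 and AT3G50990 by 0.05 and -0.05, with er-2 given first.

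**Figure D4:**
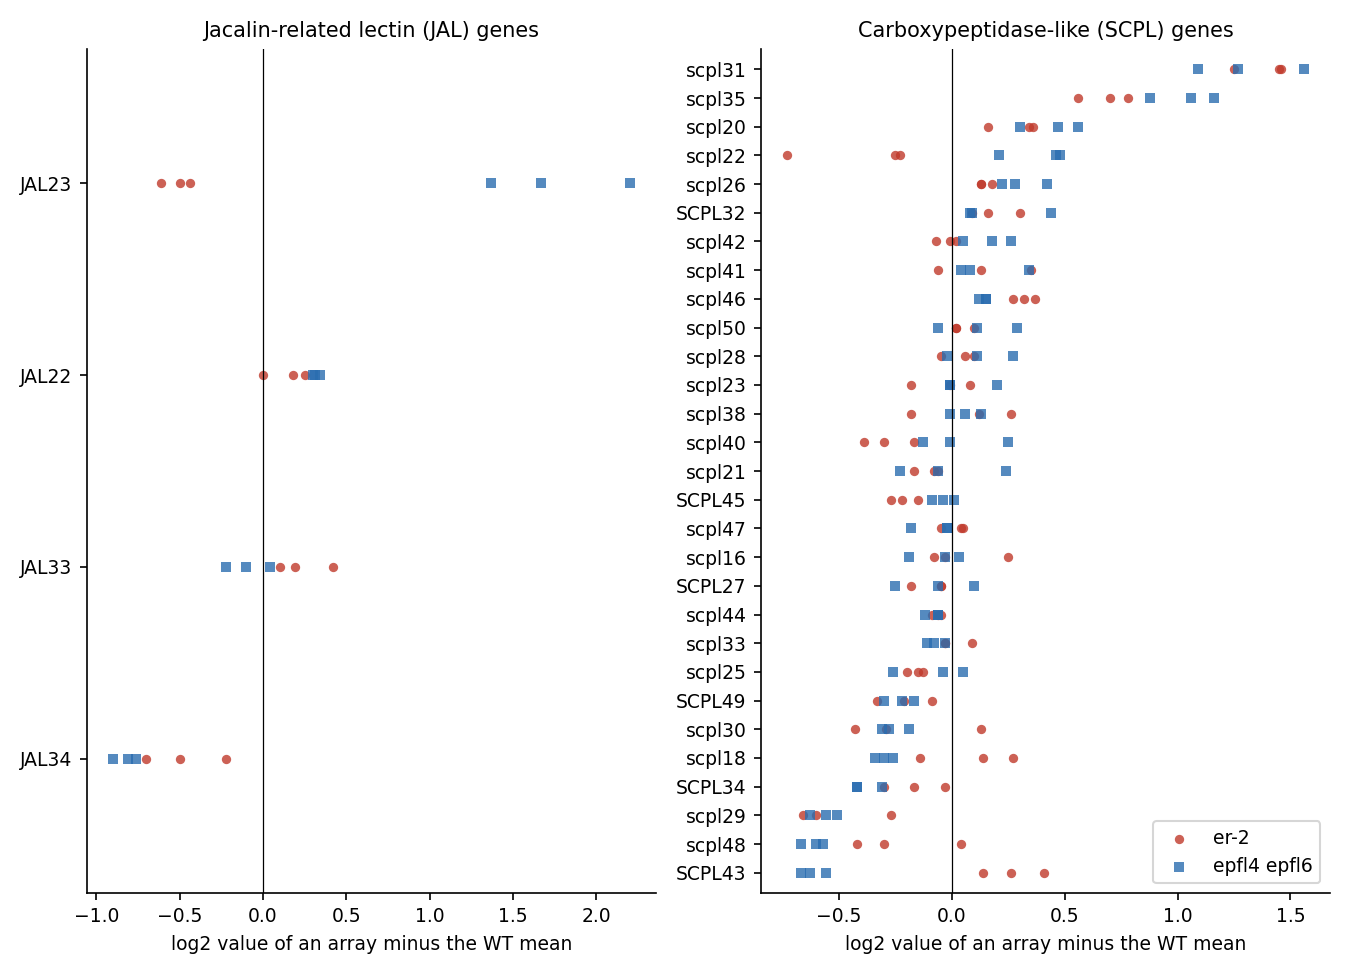
Log2 value of each mutant array minus the WT mean for 4 jacalin-related lectin genes (left) and 29 carboxypeptidase-like genes (right), er-2 as red circles and epfl4 epfl6 as blue squares, 3 arrays each. JAL23 on the left, and scpl22 and SCPL43 on the right, have the arrays of the mutants on opposite sides of 0.

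Control transcripts give the state of the RNA beside these results. The 3′ minus 5′ difference for actin, GAPDH and ubiquitin averaged 2.13 ± 0.081 in er-2 and 1.67 ± 0.0507 in epfl4 epfl6, against 2.45 ± 0.138 in WT. It was highest in WT, then in er-2, then in epfl4 epfl6, with no overlap between the arrays. The 25S ribosomal RNA control read 11.84 ± 0.105 in er-2 and 11.30 ± 0.15 in epfl4 epfl6, against 11.84 ± 0.0274 in WT. It was thus lower in epfl4 epfl6 than in er-2 and WT. The part of either control in the results was not tested.

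**Figure D5:**
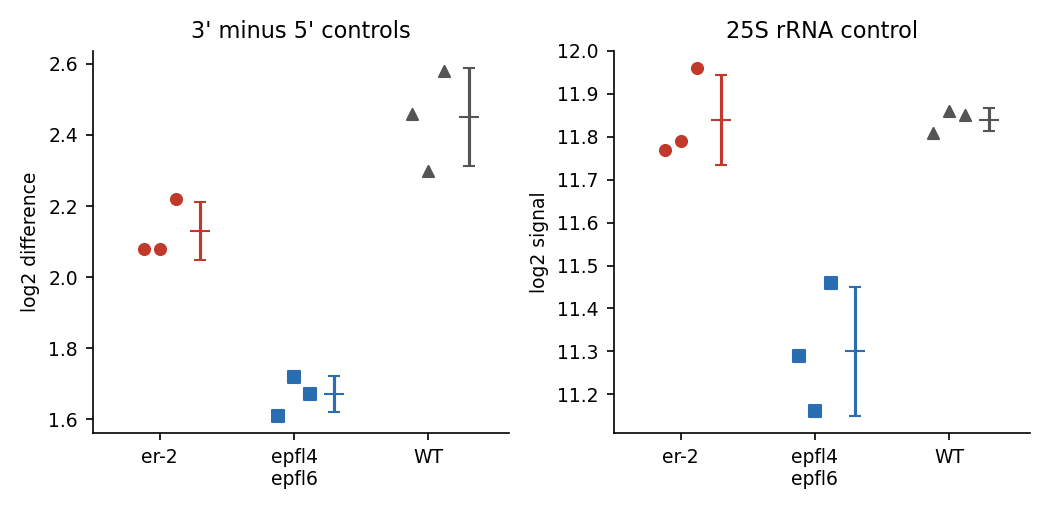
Control measures on each array (points) with the mean and SD over 3 arrays (bars): left, the log2 difference between 3′ and 5′ probe sets of actin, GAPDH and ubiquitin; right, the log2 signal of 25S rRNA. On the left both mutants lie below WT and epfl4 epfl6 is lowest; on the right epfl4 epfl6 alone lies below WT.

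None of the measured genes of the ERECTA pathway or of the marker lists was a member. Members were 0.365% of all 22746 probe sets, so nothing is read from their absence among so few genes. Of 22 genes listed for ERECTA signalling, 4 had a probe set of their own, and ER, EPFL4 and EPFL6 were not analysed here, so the genotype labels have no check from these values. By limma, 2 of the 4 were higher in er-2 (background 11.8% of all probe sets higher, 9.01% lower) and 2 in epfl4 epfl6 (17.9% higher, 16.0% lower), with none lower. FMA, which drives the last step of guard cell formation, rose by 0.98 ± 0.0806 in er-2 (SE; limma adjusted p = 4.76e-05), and in epfl4 epfl6 rose by 0.95. STOMAGEN, a peptide of the same family as EPFL4 that competes for the receptor, was called in er-2 at 0.20 ± 0.0601 (SE; limma adjusted p = 0.0398). It differed by 0.01 in epfl4 epfl6 (limma adjusted p = 0.922). The call did not hold when any of 5 arrays was dropped (arrays 1 and 3 of WT, 1 and 2 of er-2 and 1 of epfl4 epfl6), nor under quantile normalization or a fit on the 6 arrays compared. Over the alternatives the limma adjusted p ran from 0.0172 to 0.138. MUTE rose by 0.53 in epfl4 epfl6 and differed by 0.08 in er-2. The medians of the 4 genes were 0.22 in er-2 and 0.27 in epfl4 epfl6, beside 0.01 and -0.00 over all probe sets.

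The markers of the tissue could be checked only in part. Of 12 inflorescence markers 1, CLV3 of the shoot and flower meristem centre, was measured. It was below the lower quartile on all 9 arrays and was called in neither mutant, with differences of -0.02 in er-2 and of -0.04 in epfl4 epfl6. Of 8 root, seed and pollen markers, 1, PYK10, was measured, and with differences of -0.08 in er-2 and of 0.05 in epfl4 epfl6 it was called in neither. Of 9 anther and tapetum markers 5 were measured, and limma called 3 lower in er-2 and all 5 lower in epfl4 epfl6, with none higher. Over all probe sets limma called 9.01% lower and 11.8% higher in er-2, and 16.0% lower and 17.9% higher in epfl4 epfl6. SHT, an acyltransferase that makes spermidine conjugates in the tapetum, fell by 1.90 in er-2 (limma adjusted p = 0.0326), and in epfl4 epfl6 fell by 4.66. Its er-2 arrays, at 5.61, 7.67 and 5.47, overlapped those of WT, at 8.55, 8.56 and 7.35. The er-2 call did not hold with a variance trend, in a fit on the 6 arrays compared or without any of 5 arrays (1 and 2 of WT, 1 and 3 of er-2, 3 of epfl4 epfl6), and over the alternatives the limma adjusted p ran from 0.00143 to 0.115. ATA27, a β-glucosidase of the tapetum, fell by 6.34 in epfl4 epfl6 and differed by -1.98 in er-2 without being called (limma adjusted p = 0.0877). Without er-2 replicate 2, the er-2 array nearest to WT, it was called at -2.83 (limma adjusted p = 0.0118). AMS, a transcription factor of tapetum development, fell by 0.36 in er-2, and in epfl4 epfl6 fell by 0.40. EMS1, a receptor kinase that specifies the tapetum, fell by 0.37 in er-2, and in epfl4 epfl6 fell by 0.32. AT5G07230 fell by 0.83 in epfl4 epfl6 and differed by -0.36 in er-2 (limma adjusted p = 0.091, and 0.0494 after quantile normalization). The list medians were -0.37 in er-2 and -0.83 in epfl4 epfl6, beside 0.01 and -0.00 over all probe sets. The part of these tissues in the results was not tested. The er-2 count was 1 to 3 when an array was dropped, and fell short of 3 for each WT array, for er-2 arrays 1 and 3 and for epfl4 epfl6 array 3. Likewise the epfl4 epfl6 count was 4, without EMS1, when WT array 2 or 3 or epfl4 epfl6 array 1 or 3 was dropped.

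Of 9 phloem and endodermis markers 5 were measured. By limma, 2 were higher and 1 lower in er-2 (background 11.8% of all probe sets higher, 9.01% lower). In epfl4 epfl6, 3 were higher and 2 lower (background 17.9% higher, 16.0% lower). SWEET11, a sucrose exporter of the phloem parenchyma, rose by 1.75 in er-2, and in epfl4 epfl6 rose by 0.46. AT5G41920, annotated as SCARECROW-LIKE 23, rose by 0.39 in er-2, and in epfl4 epfl6 rose by 0.26. CLE44, a phloem peptide that keeps vascular stem cells dividing, fell by 1.12 in er-2, and in epfl4 epfl6 fell by 0.78. In epfl4 epfl6, OPS of the protophloem rose by 0.48 and JKD, a zinc finger protein of the ground tissue, fell by 0.37. The medians of the 5 were 0.31 in er-2 and 0.26 in epfl4 epfl6. Not all calls in epfl4 epfl6 withstood the loss of an array. SWEET11 was not called when array 1 or 3 of WT or array 2 or 3 of epfl4 epfl6 was dropped, OPS when array 2 of WT was dropped, and JKD when any array of epfl4 epfl6, array 1 or 3 of WT or array 1 of er-2 was dropped, or after quantile normalization (limma adjusted p = 0.0507). GI, the sole clock gene measured of 10, fell by 0.56 in epfl4 epfl6 (limma adjusted p = 0.00111) and differed by 0.14 in er-2 (limma adjusted p = 0.328). It lies in the part of chromosome 1 that was left out. None of 8 cell division genes and none of 9 jasmonate genes had a probe set of its own.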

How the data were processed

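The deposited table holds log2 expression values for 22810 probe sets on 9 arrays with 1 colour. The submitters' processing notes name RMA and limma, without versions; the authors' design is not given in the sources used here. The number of arrays limits the precision. The values were used as deposited, without 64 control probe sets. Genes came from the platform annotation, which gives 13513 probe sets with 1 gene, 503 with several and 8730 with none, with names from RefSeq (TAIR10.1). The build behind the array was not given, so RefSeq served only for names and gene order.

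Genotype means, differences and the overlap of arrays were computed in Python 3.11.15 with pandas 2.3.3. Calls for gene lists came from limma 3.58.1 (R 4.3.3), fitted to the 9 arrays together with genotype as the only term, at a Benjamini-Hochberg adjusted p under 0.05 over 22746 probe sets, two-sided. P-values set a difference of means against the spread between arrays of the same genotype, over these samples only. On simulated data over 22746 probe sets, er-2 against WT recovered 57.0% of changes of 0.5 and 96.0% of changes of 1, and epfl4 epfl6 against WT recovered 65.0% and 96.0%. The simulated noise was normal, and 100 probe sets were changed by each size, far fewer than were called in the data. What an adjusted p under 0.05 demands depends on the share changed, so these rates need not hold for the real comparisons.

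The members and the lists were chosen with earlier results of these data known. All 27 genes with 1 listed gene are named, with values per array for the 12 whose smaller change was largest, and for others after their values were seen; of each list, up to 4 called genes by smallest p are named, and further ones after their values were seen. Alternatives were quantile normalization, median centring, leaving out dim probe sets, other size limits, a variance trend, the replicate number as a block, fits on 6 arrays and each array left out. Promoter motifs were not analysed here.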

Additional observations from a re-analysis of the deposited data

How the results depend on the processing

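The count of 83 members was 142 at a size limit of 0.2, 20 at 0.4 and 27 when only probe sets with 1 gene were counted. It was 80 after quantile normalization (70 shared with the original 83), 87 after median centring (68 shared), 80 without the dimmest 30% of probe sets, and 89 to 105 when an array was left out. The number higher in er-2, 28 with all arrays, was 49 without er-2 replicate 3, 44 without epfl4 epfl6 replicate 3 and 42 without WT replicate 2. Of 594 recomputed differences of the 27 genes, 591 moved by less than 1 SD. The exceptions were AT5G16250 (0.22), AT1G49200 (-0.22) and ARPN (0.61) in epfl4 epfl6 after quantile normalization. Leaving out an array cannot move a mean of 3 arrays by 1 SD of its group, so this count is no sign of stability. By limma 4722 probe sets were called in er-2 and 7707 in epfl4 epfl6, within 1.5 times under each alternative in which all arrays were kept. Leaving out an array gave 3257 to 4658 and 6264 to 7723. After median centring 4951 were higher and 2922 lower in epfl4 epfl6, against 4079 and 3628. The labels number the replicates in each genotype, and a fit with a replicate block called 4367 and 7449. In er-2 this block lost the STOMAGEN call and added ATA27 (limma adjusted p = 0.0381), AT5G07230 (0.0459) and JKD (0.0191), so that all 5 anther and tapetum markers and 2 of the phloem and endodermis markers were called lower. Deviations of same-numbered arrays correlated between -0.19 and 0.29, so the numbers were not taken as pairs. Arrays give no depth, and signal over background was not measured, so faint genes such as scpl22 are the least certain.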
